A study of Homo sapiens with 6 samples.

Results

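MYC and 9 other genes of its MAX/MLX network were followed in MOLM13 cells treated with the METTL3 degrader ZW27941. The members were taken by symbol from the authors' count files. They were MYC, MAX, MXD1, MXD3, MXD4, MXI1, MNT, MLX, MLXIP and MGA, 10 of the 56305 genes counted, and every one of them was found and passed the filter on low counts. MOLM13 is an acute myeloid leukemia cell line that carries an internal tandem duplication of FLT3 and a rearrangement of chromosomes 9 and 11 (p22 and q23). The control cells received DMSO, the treated cells received 1 μM ZW27941, and RNA was taken from both after 24 h. Each condition had 3 libraries. All of them came from this single line, and the labels do not say whether the libraries came from separate cultures, so the p-values measure only the spread between these libraries.

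MYC is a transcription factor that binds DNA as a dimer with MAX, mostly at the E-box sequence CACGTG, and raises genes of ribosome assembly, metabolism and cell division. MXD1, MXI1, MXD3, MXD4 and MNT also dimerise with MAX, occupy the same sites and recruit the SIN3 corepressor with its histone deacetylases, so they act as antagonists of MYC. MGA is a large T-box protein that pairs with MAX inside a Polycomb complex, while MLX is a second shared partner that pairs with MLXIP (MondoA), a sensor of glucose, and with some of the MXD proteins. In blood cells MYC is known for driving proliferation, and MXD1 is known for rising when myeloid cells mature.

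E-boxes were looked for in the network's own promoters, since its proteins bind them. RefSeq windows of 300 bases (250 before and 50 after a start, GRCh38.p14) were at hand for 9 of the 10 members, with 14 windows in all. CACGTG, which reads the same on both strands, was present in windows of 3 members, MLX, MNT and MXD4. Among all genes with a window, 8.77% held it. The bases around these E-boxes are given from 5′ to 3′ on the strand of the gene, with the E-box in capitals. The E-box of MLX (bases shown chr17:42567020-42567085, + strand) begins 50 bases before the start. That of MNT (bases shown chr17:2401218-2401283, − strand) begins 193 bases before it. That of MXD4 (bases shown chr4:2262312-2262359, − strand) begins 238 bases before it.
MLX: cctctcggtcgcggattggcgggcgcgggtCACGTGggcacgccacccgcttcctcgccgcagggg
MNT: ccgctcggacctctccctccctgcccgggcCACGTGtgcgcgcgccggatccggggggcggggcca
MXD4: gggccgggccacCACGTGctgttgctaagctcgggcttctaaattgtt
The windows of MXD1, MXD3, MXI1, MAX, MLXIP and MGA did not contain these letters, which says nothing about sites outside the windows.

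The DMSO libraries held 143454176 to 153825333 counts on genes and the ZW27941 libraries 143621822 to 178744976. ZW27941 replicate 3 stood somewhat apart, with a chi-square per gene of 7.97 and 11.7 against the other treated libraries, where all other pairs within a condition were at 4.38 to 5.20. It also had the highest share of reads aligned to several places (5.25%) and unaligned (18.1%). The myeloid identity of the cells was checked with 13 markers. FLT3 was at 563 CPM (counts scaled to library size, per 1e+06 counts, after normalization by edgeR's TMM method) and MPO at 175 CPM in DMSO, whereas CD14 was at 1.54 CPM and CD68 at 0.231 CPM. The summed level of these markers was 2815 to 2865 CPM in DMSO and 3095 to 3158 CPM on ZW27941. Of the 13, 7 were higher and 1 was lower (61.5%, against 30.1% of all genes, by the test described below). CSF1R, LYZ and SPI1 had the lowest p of these, with log2 fold changes of 0.40, 0.27 and 0.11. The erythroid markers HBB and HBA1 were at 0 in DMSO and on ZW27941, and the other 2 of that list summed with them to at most 0.0199 CPM. Lymphoid markers summed to 13.3 to 13.7 CPM in DMSO and 11.1 to 12.3 CPM on ZW27941, most of it TRAC, with CD3E at 0.00895 CPM in DMSO. Of the 4 tested, 1 was lower (25%, against 30.1% of all genes in either direction). Markers of epithelial cells and fibroblasts summed to 1.01 to 1.06 CPM in DMSO, and the treated libraries lay on both sides of that range. Mitochondrially encoded genes took 2.59% to 2.72% of the counts in DMSO and 2.90% to 2.99% on ZW27941. The part of these shifts in the results below was not tested. In such bulk samples, fewer cells of a type and less RNA per cell cannot be told apart. METTL3, whose protein the compound degrades, had a transcript level of 121 ± 1.17 CPM in DMSO and 123 ± 4.95 CPM on ZW27941 (SD, n = 3 each), which does not check the loss of the protein.

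To examine the network on ZW27941, the members were compared between conditions in a fit across 20399 genes. Of the 10 members, 6 passed an adjusted p under 0.05 (quasi-likelihood test of edgeR, with p values adjusted over all genes tested by the Benjamini-Hochberg method), against 30.1% of all genes. MXD1, MXD3, MNT and MLX were higher on ZW27941, and MYC and MXI1 were lower. The background was 16.3% of genes for a rise and 13.8% for a fall. In 7 members the libraries of both conditions did not overlap, against 41.6% of all genes. These were the 6 and MAX, with 5 members higher and 2 lower, against 21.7% and 19.9% of all genes. The median log2 fold change of the members was 0.057 and that of all genes tested was −0.0019.

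**Figure D1:**
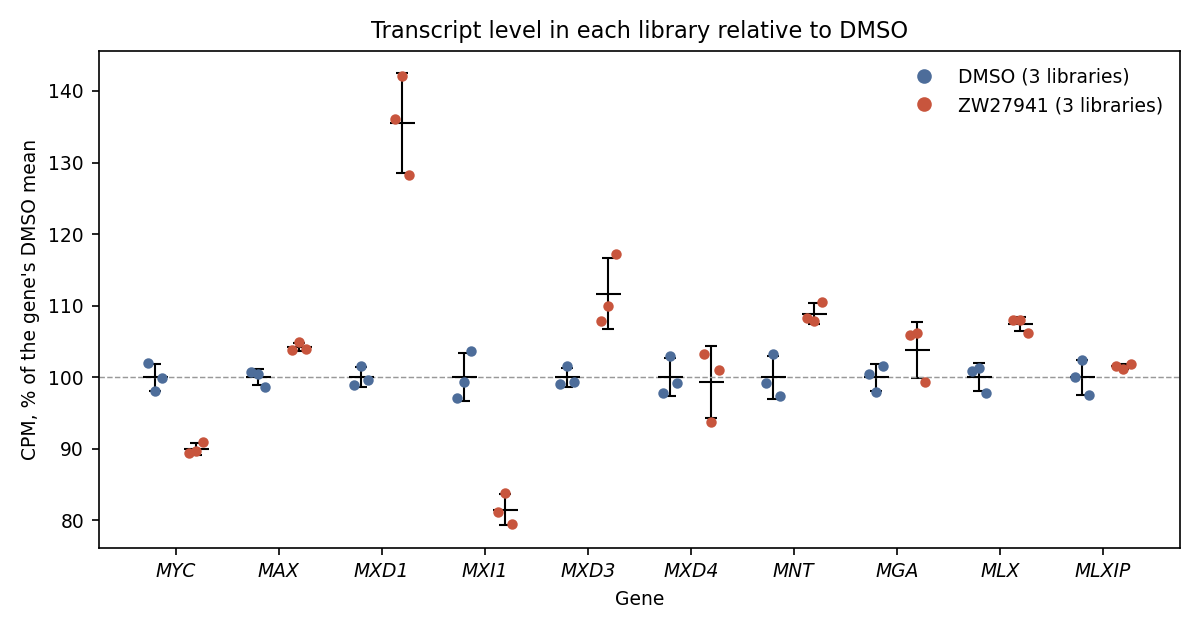
Level of each member in every library, as a percentage of the gene's mean CPM in DMSO (vertical axis). Points are libraries, bars are the mean ± SD of 3 libraries. MXD1 stands highest on ZW27941, MXI1 and MYC lie below every DMSO library, and MXD4, MGA and MLXIP overlap.

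MYC fell by 9.98%. It was at 386, 372 and 378 CPM in the DMSO libraries and at 339, 340 and 344 CPM in the ZW27941 libraries. Every treated library lay below every control library, and the spread among the treated libraries was the smaller one. The means were 379 ± 7.19 and 341 ± 3.08 CPM (SD, n = 3 each), a log2 fold change of −0.15 (standard error 0.0243, 95% interval −0.20 to −0.10, edgeR, adjusted p = 5.78e-05). In absolute size this change was larger than that of 59.9% of the genes tested. The MYC gene lies at chr8:127735434-127741434 on the + strand (GRCh38, GENCODE v29), and no other gene of that annotation overlaps it. PVT1, a long non-coding RNA gene that begins 53.1 kb downstream of the end of MYC and is known as a partner in its regulation, fell too. Its libraries were at 28.0, 27.6 and 26.4 CPM in DMSO and 20.9, 21.0 and 21.6 CPM on ZW27941, which did not overlap, with a log2 fold change of −0.37 (edgeR, adjusted p = 3.28e-08).

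The MYC paralogs were absent or low. MYCN had no count in any library. MYCL, which also pairs with MAX, was at 11.2 ± 0.589 CPM in DMSO and 11.0 ± 0.102 CPM on ZW27941 (SD, n = 3 each), with overlapping libraries and a log2 fold change whose 95% interval ran from −0.12 to 0.07. MLXIPL (ChREBP), the paralog of MLXIP, stood at 0.320 ± 0.00715 and 0.251 ± 0.107 CPM (SD, n = 3 each) and did not pass (edgeR, adjusted p = 0.338). Of the 2 paralogs tested, 0 passed in edgeR's quasi-likelihood test, 0 had an unadjusted p under 0.05, and 0 passed in DESeq2. Without ZW27941 replicate 3, MLXIPL passed with a log2 fold change of −0.76 (edgeR, adjusted p = 0.0427), and without ZW27941 replicate 1 it was at −0.10 (edgeR, adjusted p = 0.818).

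MAX (chr14:65006174-65102695, − strand), the obligate partner of MYC, was at 39.4, 39.3 and 38.5 CPM in DMSO and 40.6, 41.0 and 40.6 CPM on ZW27941. The treated libraries all lay above the control libraries, but by little. The log2 fold change of 0.06 (95% interval 0.0019 to 0.12) did not pass after adjustment (edgeR, adjusted p = 0.113).

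Among the antagonists, the responses differed in direction. MXD1 (chr2:69897688-69942945, + strand) showed the largest change of the 10 members. Its libraries were at 35.4, 36.4 and 35.7 CPM in DMSO and at 48.8, 51.0 and 46.0 CPM on ZW27941. Every treated library was well above the controls, with a wider spread among them. The means of 35.9 ± 0.505 and 48.6 ± 2.50 CPM (SD, n = 3 each) gave a rise of 35.4% and a log2 fold change of 0.44 (standard error 0.0333, 95% interval 0.37 to 0.51, edgeR, adjusted p = 3.25e-09). This was larger in absolute size than the change of 89.0% of the genes tested. MXD1 shares 237 exon bases with SNRNP27 on the same strand, whose means were 16.7 and 15.8 CPM (edgeR, adjusted p = 0.0760).

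MXI1 (chr10:110207605-110287365, + strand) moved the other way. Its libraries were at 165, 169 and 176 CPM in DMSO and at 138, 143 and 135 CPM on ZW27941, so that the highest treated library was below the lowest control. The means were 170 ± 5.65 and 139 ± 3.70 CPM (SD, n = 3 each). MXI1 fell by 18.5%, with a log2 fold change of −0.30 (standard error 0.0278, 95% interval −0.35 to −0.24, edgeR, adjusted p = 7.19e-08). The RefSeq table lists 3 windows for MXI1 with separate starts. Counts per gene do not show which start was used.

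MXD3 (chr5:177301461-177312757, − strand), an antagonist linked to proliferating cells, was at 18.5, 19.0 and 18.6 CPM in DMSO and at 20.2, 20.6 and 21.9 CPM on ZW27941. The conditions did not overlap, and ZW27941 replicate 3 was the highest. The treated level was higher by a log2 fold change of 0.16 (SE 0.0364, edgeR, adjusted p = 0.00199). MXD3 shares 926 exon bases with RAB24 and 1158 with PRELID1 in GENCODE v29. The strand setting of the counting is not given, so reads there cannot be assigned with certainty. RAB24 moved in the opposite direction, with a log2 fold change of −0.17 (edgeR, adjusted p = 0.00434).

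MNT (chr17:2384060-2401118, − strand), an antagonist expressed in most tissues, was at 58.8, 61.2 and 57.7 CPM in DMSO and 64.1, 63.8 and 65.5 CPM on ZW27941. All treated libraries exceeded the controls, with a log2 fold change of 0.12 (standard error 0.0279, 95% interval 0.07 to 0.18, edgeR, adjusted p = 0.00182). MNT shares 1065 exon bases with the antisense gene AC006435.1, for which no value is given here. MXD4 (chr4:2247432-2262294, − strand) was at 30.5, 32.1 and 30.9 CPM in DMSO and 32.2, 29.2 and 31.5 CPM on ZW27941. Its highest and lowest values were both treated libraries. The log2 fold change of −0.01 had a 95% interval of −0.08 to 0.06 (edgeR, adjusted p = 0.880), and its sign turned in 3 of the 13 alternatives. MGA (chr15:41621224-41773081, + strand) was at 113, 110 and 115 CPM in DMSO and 119, 120 and 112 CPM on ZW27941, with a log2 fold change of 0.05 (edgeR, adjusted p = 0.162). ZW27941 replicate 3 was the one that overlapped with the controls, and without it MGA passed with 0.08 (edgeR, adjusted p = 0.0133).

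On the MLX arm, MLX (chr17:42567068-42573239, + strand) was at 62.3, 62.6 and 60.4 CPM in DMSO and 66.7, 66.7 and 65.6 CPM on ZW27941. The conditions were apart, with a log2 fold change of 0.10 (standard error 0.0263, 95% interval 0.05 to 0.16, edgeR, adjusted p = 0.00465). MLX shares 770 exon bases with PSMC3IP on the other strand, whose log2 fold change was −0.01. MLXIP (chr12:122078722-122147347, + strand) was at 136, 139 and 132 CPM in DMSO and 138, 137 and 138 CPM on ZW27941, and the treated libraries lay inside the range of the controls. Its log2 fold change was 0.02 (95% interval −0.03 to 0.07, edgeR, adjusted p = 0.555), and its sign turned with upper quartile normalization, to −0.0013.

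**Figure D2:**
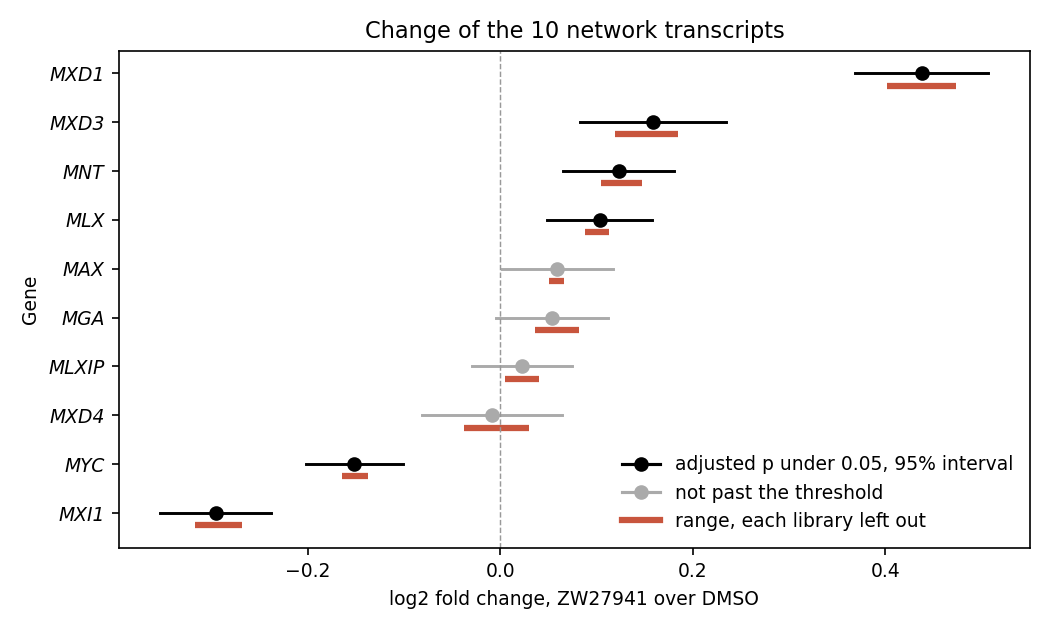
Log2 fold change of each member, ZW27941 over DMSO (horizontal axis), with 95% intervals. Black marks passed the adjusted threshold, grey did not, and red bars give the range when each of the 6 libraries was left out in turn. MXD1 is at 0.44, MYC at −0.15 and MXI1 at −0.30, and the red bar of MXD4 alone crosses 0.

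The members were put in order of level after division by the length of all exons of a gene in GENCODE v29. On this scale MYC was the highest member by far, with 126 ± 2.40 CPM per kb in DMSO and 114 ± 1.03 CPM per kb on ZW27941 (SD, n = 3 each). MXI1 came next with 36.9 ± 1.23 CPM per kb in DMSO, ahead of MLX with 14.5 ± 0.284, MLXIP with 9.74 ± 0.238 and MAX with 8.82 ± 0.101 CPM per kb (SD, n = 3 each). The low end held MNT with 6.78, MGA with 6.39, MXD1 with 5.65, MXD4 with 4.42 and MXD3 with 3.63 CPM per kb. No neighbours in this order overlapped among the DMSO libraries. The lower ranks depended on the length used. MXD1 was the lowest of the 10 when the longest coding transcript was taken instead, while the first 6 places were unchanged. On ZW27941, MXD1 reached 7.65 ± 0.394 CPM per kb (SD, n = 3) and stood above MGA and, in the mean, above MNT with 7.39 ± 0.100 CPM per kb (SD, n = 3). The place above MNT also depended on the length. By the longest coding transcript, the mean of MXD1 on ZW27941 was 8.69 CPM per kb. This was above MGA with 8.11 but below MXD3 with 9.20 and MNT with 12.9 CPM per kb.

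**Figure D3:**
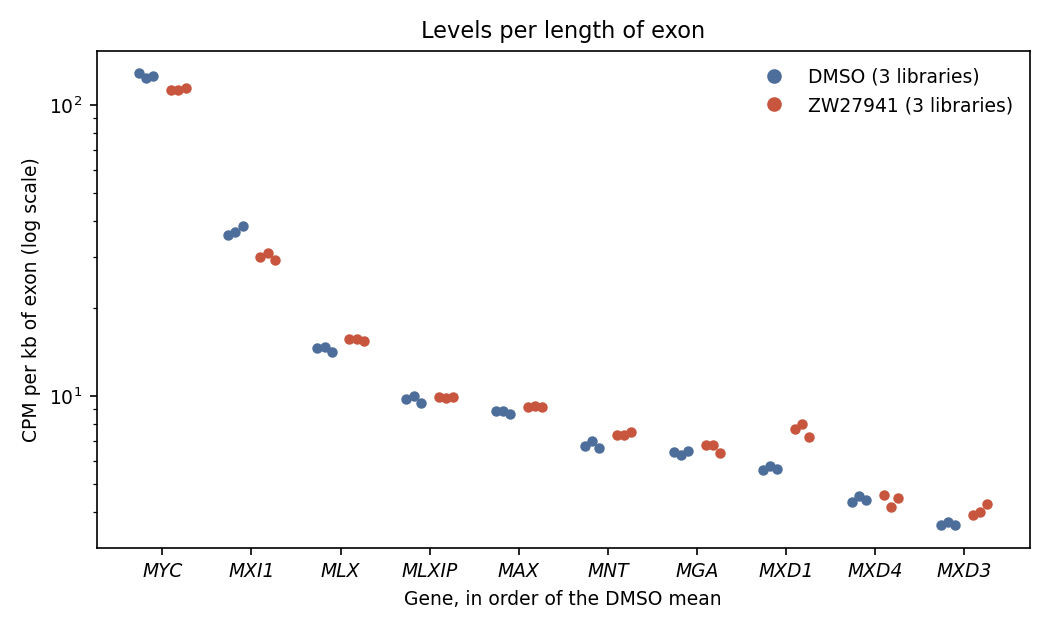
Level of each member per kb of exon on a log axis, in the order of the DMSO means (left to right), with 1 point per library. MYC lies at 113 to 129 CPM per kb in all 6 libraries and no other member exceeds 38.3.

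MYC was then contrasted with its antagonists within each library, as a log2 ratio. Ratios to single genes used CPM undivided by length, so only their difference between conditions, which gene length does not affect, is read here. They are descriptions and were not tested. Relative to MXD1, the CPM ratio of MYC was at 3.44, 3.35 and 3.41 in DMSO and 2.79, 2.74 and 2.90 on ZW27941, a difference of −0.59. The difference was −0.31 relative to MXD3, −0.27 relative to MNT, −0.20 relative to MGA and −0.21 relative to MAX, in each case without overlap between the conditions. Relative to MXD4 it was −0.14, with overlap. Relative to MXI1 it had the opposite sign, 0.14, since MXI1 had the larger fall, and the libraries did not overlap here either.

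The sum over the antagonists was dominated by MXI1. The 5 antagonists together (MXD1, MXD3, MXD4, MXI1 and MNT) were at 57.4 ± 1.22 CPM per kb in DMSO and 53.6 ± 0.806 CPM per kb on ZW27941 (SD, n = 3 each). MXI1 made up 64.3% ± 0.969 of this sum in DMSO and 56.2% ± 0.653 on ZW27941, and MXD1 rose from 9.84% ± 0.195 to 14.3% ± 0.527 of it (SD, n = 3 each). The log2 ratio of MYC to the sum, both per kb, was 1.20, 1.10 and 1.11 in DMSO and 1.08, 1.06 and 1.12 on ZW27941, which overlapped, with a difference of −0.05. It was −0.02 without DMSO replicate 1 and −0.07 without ZW27941 replicate 3, the extremes of leaving out each library. With the longest coding transcript as the length, the difference was −0.07, and with CPM undivided by length it was −0.10, and on neither scale did the libraries overlap. With MXI1 left out of the sum, the difference was −0.35, from 2.62 ± 0.055 to 2.27 ± 0.014 (SD, n = 3 each), and the conditions were clearly apart. The CPM ratio of MXD1 to MXI1 went from −2.25 ± 0.050 to −1.51 ± 0.038 on the log2 scale (SD, n = 3 each).

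**Figure D4:**
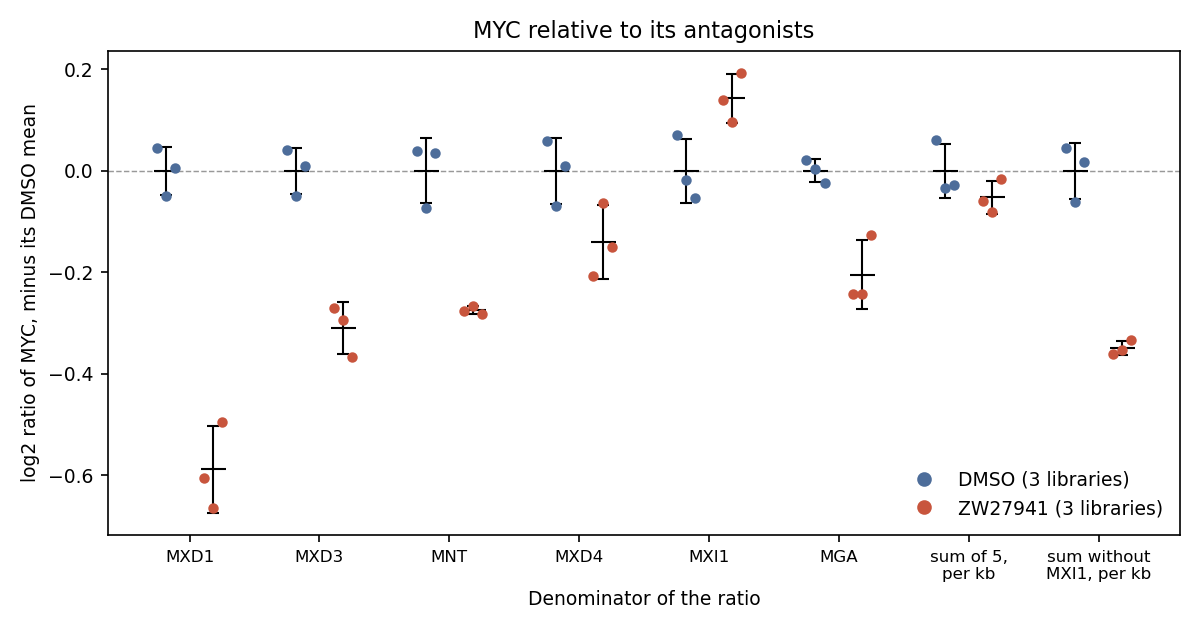
Log2 ratio of MYC to each antagonist and to their sum in every library, after subtraction of the ratio's DMSO mean (vertical axis). Points are libraries and bars the mean ± SD of 3. The ratio to MXD1 differs by −0.59 and that to MXI1 by 0.14, while the ratio to the sum of 5 overlaps between conditions.

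The 5 genes whose pattern over the 6 libraries was most like that of MYC were NAE1, TAF1D, NACA, ATXN10 and NDUFAF2. The measure was the root mean square difference of log2 CPM after each gene was centred on its DMSO mean, over 12229 genes, and it ran from 0.0074 to 0.013. NAE1, for example, went from 58.2 ± 1.11 to 52.7 ± 0.373 CPM (SD, n = 3 each). TAF1D is a subunit of an RNA polymerase I factor and NACA binds nascent proteins at the ribosome. The 5 genes were picked by their values alone, and a shared function was not tested. NACA has pseudogenes with which reads could be shared.

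Genes that MYC is known to activate were described as a list of 61, all of which were tested. Of these, 14 were lower and 9 were higher, so that 37.7% passed where 30.1% of all genes did, and the median log2 fold change was −0.02. The 3 with the lowest p all fell. NPM1, a nucleolar chaperone, went from 1394 ± 22.0 to 1147 ± 32.7 CPM (SD, n = 3 each), with a log2 fold change of −0.28 (edgeR, adjusted p = 8.29e-08). CCND2, a cyclin of G1, had a log2 fold change of −0.24, and EXOSC5, a subunit of the RNA exosome, of −0.25. In contrast, NCL, the gene of nucleolin, rose from 1374 ± 13.4 to 1488 ± 15.5 CPM (SD, n = 3 each), a log2 fold change of 0.12 (edgeR, adjusted p = 0.00108). ODC1 of polyamine synthesis had a log2 fold change of −0.0018 (95% interval −0.06 to 0.05) and CDK4 of 0.02 (95% interval −0.03 to 0.08). NPM1 has many processed pseudogenes, so its reads could be split.

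The E-box was common in this list. Promoter windows were at hand for 50 of the 61 genes, and 26 of them (52%) held CACGTG, against 8.77% of all genes. Of these 26 genes, 4 were higher and 4 were lower, a share near that of all genes (30.1%), with a median log2 fold change of 0.00056. Of the 24 genes of the list whose windows lack it, 3 were higher and 7 were lower, with a median of −0.04. Whether these groups differ was not tested. Part of the window of EXOSC5 (bases shown chr19:41397310-41397478, − strand) is given. It was chosen because the window holds 2 E-boxes and the gene was among the 3 with the lowest p. The first begins 89 bases before the start and the last 14 bases after it.
EXOSC5: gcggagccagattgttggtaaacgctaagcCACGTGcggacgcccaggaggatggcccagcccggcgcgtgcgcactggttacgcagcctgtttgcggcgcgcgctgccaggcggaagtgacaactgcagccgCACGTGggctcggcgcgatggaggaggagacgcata

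Of 16 genes that MYC is known to repress, 14 were tested, with 6 lower and 3 higher and a median log2 fold change of −0.23. The shares of all genes were 13.8% lower and 16.3% higher. The 3 with the lowest p all fell. FTH1, the ferritin heavy chain, went from 1091 ± 15.0 to 856 ± 11.1 CPM (log2 fold change −0.35). NDRG1, a stress-induced gene, went from 569 ± 30.3 to 439 ± 11.5 CPM (−0.37) (SD, n = 3 each). The third was CDKN1A. Log2 fold changes in the list ran from −0.63 to 0.38, so its largest fall was that of another gene. CDKN1A, the cell cycle inhibitor p21, was at 315, 333 and 330 CPM in DMSO and 278, 268 and 275 CPM on ZW27941, with no overlap and a log2 fold change of −0.25 (edgeR, adjusted p = 2.26e-07). The paper reported the opposite direction for CDKN1A, a rise by quantitative PCR in MOLM13 at the same dose. The reason for this difference was not tested. For MYC, the paper reported a fall by the same method and less c-Myc protein by Western blot. That is the direction of the MYC transcript here. The 3 that rose were CEBPA, a myeloid transcription factor, NDRG2 and CLU, with log2 fold changes of 0.08, 0.19 and 0.38.

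Genes known as targets of MLXIP and MLX made a short list with a median log2 fold change of −0.09. Of 7 listed genes 5 were tested, all 5 had a lower mean on ZW27941, 2 passed and none of the 5 was called higher (0 by the quasi-likelihood test, by an unadjusted p under 0.05 and by DESeq2). Of all genes, 30.1% passed and 10279 of 20399 had a lower mean. TXNIP, which restrains glucose uptake and is the best known of these targets, was at 514, 546 and 571 CPM in DMSO and 464, 480 and 472 CPM on ZW27941, with no overlap and a log2 fold change of −0.20 (edgeR, adjusted p = 2.66e-05). HK2, a hexokinase, had a log2 fold change of −0.17 (edgeR, adjusted p = 7.95e-05). Part of its window (bases shown chr2:74834946-74835056, + strand) is given because it holds a pair of E-boxes, 194 and 149 bases before the start. E-boxes stood in the windows of 4 of the 5 listed genes that have one. ARRDC4, a paralog of TXNIP, was at 4.21 ± 0.415 and 3.96 ± 0.136 CPM (SD, n = 3 each) and did not pass (edgeR, adjusted p = 0.434).
HK2: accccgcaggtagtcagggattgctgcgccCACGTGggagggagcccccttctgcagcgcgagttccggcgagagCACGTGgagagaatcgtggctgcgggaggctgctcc

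Among 19 genes of corepressors, those of the SIN3 complex included, 5 were lower (HDAC2, HDAC3, SIN3B, SAP18 and SAP30) and 2 were higher, SIN3A among them (36.8% called, against 30.1% of all genes), with a median log2 fold change of −0.0095 over the list. SIN3A had a log2 fold change of 0.07 and SIN3B of −0.09, and the deacetylases HDAC2 and HDAC3 of −0.09 and −0.10. The count of 7 depended on single libraries, with 2 to 4 genes called when any library other than ZW27941 replicate 3 was left out and 9 without that one.

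Of 17 coactivators of MYC, 4 were lower and 2 were higher (35.3% called, against 30.1% of all genes), with a median log2 fold change of 0.04. KAT2A, a histone acetyltransferase, and RUVBL2, an ATPase of chromatin complexes, had log2 fold changes of −0.16 and −0.12, and PAF1, an elongation factor, of 0.16. The other 3 were WDR5 and SMARCB1, which were lower, and CDK9, which was higher. Without ZW27941 replicate 3, 10 of the 17 passed.

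Of 23 genes for turnover of the MYC protein, 4 were higher and 4 were lower (34.8% called, against 30.1% of all genes), with a median log2 fold change of −0.03. PPP2CA, the catalytic subunit of a phosphatase that acts on MYC, had a log2 fold change of 0.21 and KIAA1524, whose product CIP2A inhibits that phosphatase, of 0.19. AXIN1, a scaffold for MYC degradation, had one of 0.15. FBXW7, the F-box protein that targets MYC, was at 30.2, 28.7 and 31.2 CPM in DMSO and 30.1, 30.3 and 30.3 CPM on ZW27941, with a 95% interval of its log2 fold change from −0.06 to 0.08. Without DMSO replicate 3, 4 genes passed in place of 8.

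Of 13 factors that bind MYC DNA or mRNA, 5 were lower and 2 were higher (53.8% called, against 30.1% of all genes), with a median log2 fold change of −0.06. YTHDF2, an m6A reader that promotes mRNA decay, and ELAVL1, which stabilises mRNAs, were the 2 that rose, with log2 fold changes of 0.16 and 0.15. CNBP, which binds the MYC promoter, had one of −0.14. Without DMSO replicate 1 or ZW27941 replicate 2, 4 genes passed in place of 7.

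Of 11 other subunits of the MGA complex (PRC1.6), 6 were higher and 0 were lower, where 16.3% and 13.8% of all genes were. An unadjusted p under 0.05 was found for the same 6 and for 0 of the lower ones, DESeq2 also called 6, and the median log2 fold change was 0.07. TFDP1, a dimer partner of E2F6, had a log2 fold change of 0.11, and YAF2 and RYBP, alternative subunits that bind RING1 proteins, had 0.16 and 0.13. The subunits not called were L3MBTL2, PCGF6, E2F6, TFDP2 and CBX3. Their log2 fold changes were 0.03, −0.01, 0.02, −0.06 and −0.02. MGA itself did not pass either (edgeR, adjusted p = 0.162), so the rises were those of some subunits and not of the whole complex. Of 9 other factors with a bHLH-zipper that bind E-boxes, 3 were higher and 1 was lower (44.4% called, against 30.1% of all genes), with a median log2 fold change of −0.03. The fall was that of SREBF2, which drives sterol synthesis, with a log2 fold change of −0.32. TFEC, a factor of macrophages, had 0.23, SREBF1 0.10 and MITF 0.15. With upper quartile normalization, 7 of the 9 passed.

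**Figure D5:**
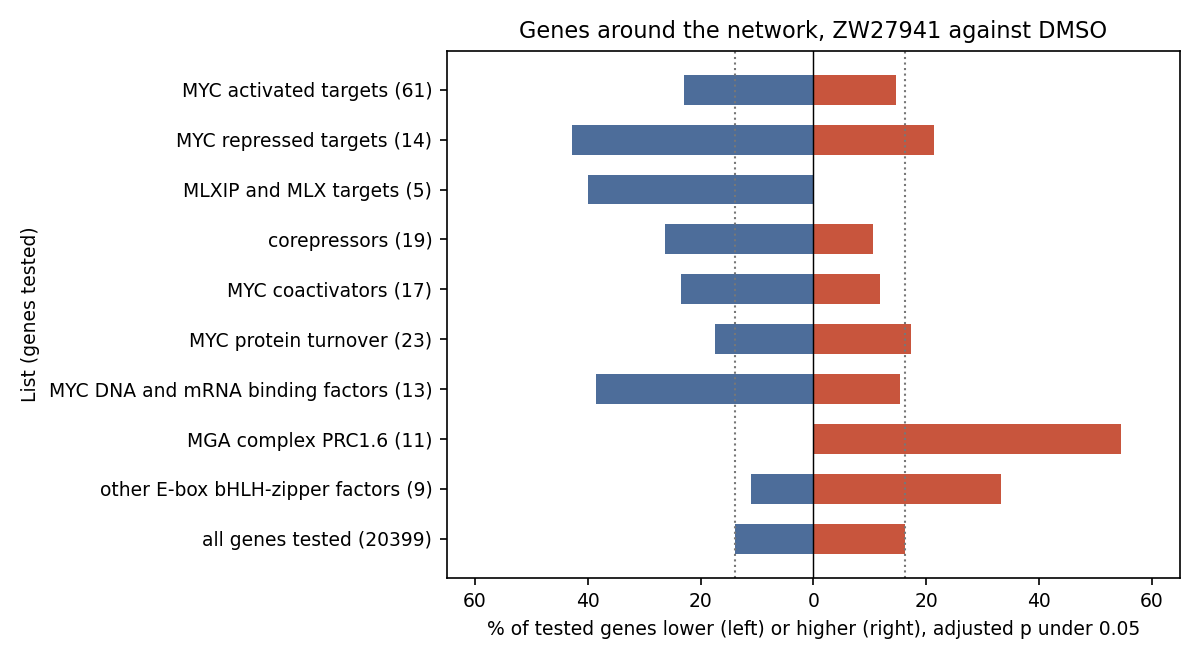
Share of the tested genes of each list that was higher (right, red) or lower (left, blue) on ZW27941 with an adjusted p under 0.05, in %. Dotted lines mark the shares among all 20399 genes tested, 16.3% higher and 13.8% lower. Among called genes, the list of MGA complex subunits has rises only, and the MYC repressed targets have more falls than rises.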

How the data were processed

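RNA from 3 DMSO and 3 ZW27941 libraries of MOLM13 was sequenced. For every library the authors deposited unnormalized read counts, listed by symbol. The submitters' processing notes name HISAT2, SAMtools 1.19.2, HTSeq 2.0.3 and the build hg38, and the annotation and strand setting are not given in the sources used here. The labels plan fewer raw reads per sample than the counts the files hold, and this difference was not resolved. HTSeq's 5 tallies of unassigned reads (together 37.4% to 39.8% of reads tallied per library) were left out, so reads shared by overlapping genes are not counted.

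The test used edgeR 4.0.16 under R 4.3.3 (TMM, filterByExpr, quasi-likelihood test, Benjamini-Hochberg adjustment over the 20399 genes tested, threshold 0.05). The study names edgeR for its table of genes, without a design, so condition was the only term. The biological coefficient of variation was 3.11%. The steps were also run on simulated data. The outcome of that run is not given here, and no result above rests on it. DESeq2 1.42.0 was an alternative. Intervals are at 95%. Lengths and positions came from GENCODE v29 (GRCh38) and promoter sequences from RefSeq (GRCh38.p14).

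The members and lists were chosen with earlier results of these data known. Genes named were the 10 members, the 3 with the lowest p among those called in each list, a fixed set of genes (MYC paralogs, PVT1 and known targets or partners), and the 5 most like MYC among those whose log2 CPM averaged 1 or more. SAP18, SAP30, WDR5, SMARCB1, CDK9, CEBPA, NDRG2, CLU, MITF, RAB24, L3MBTL2, PCGF6, E2F6, TFDP2 and CBX3 were named after their values were seen. A gene of the corepressor list that this rule names is not reported here. No replicate pair agreed within sampling noise.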

Additional observations from a re-analysis of the deposited data

How the results depend on the processing

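The calls of MYC, MXD1, MXD3, MXI1, MNT and MLX kept their direction and stayed past the threshold in all 13 alternatives (RLE, upper quartile and library size normalization, DESeq2's Wald test, edgeR's exact test, no filter on low counts, the replicate number as a block, and each of the 6 libraries left out). MYC ran from −0.18 to −0.14 on the log2 scale, MXD1 from 0.40 to 0.47 and MXI1 from −0.32 to −0.27. The number of members called was 6 in each alternative and 7 without ZW27941 replicate 3, which added MGA (0.082), so the leave-one-out range was 6 to 7. All genes called numbered 6149, and 4836 to 6134 with a library left out. With the replicate block 6010 genes and 6 members passed, and the block changed the call of no member. The numbers only name the samples: the labels tie them to no shared culture, and deviations of same-numbered libraries had correlations of −0.0099, 0.0031 and 0.043. With upper quartile normalization 57.9% of called genes were lower, against 45.8% with TMM, and the median of all genes was −0.025.

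Signs that turned belonged to members that were not called. MXD4 was at 0.0013 with library size only, 0.013 without DMSO replicate 2 and 0.029 without ZW27941 replicate 2 (−0.038 to 0.029 over the 6 libraries left out in turn), and MLXIP was at −0.0013 with upper quartile normalization. The ratio of MYC to the summed antagonists, with a difference of −0.052, moved to −0.35 with MXI1 left out of the sum, an alternative chosen after the data were seen, as was the longest transcript length (−0.065). With CPM undivided by length it was −0.098, and with each library left out −0.070 to −0.021. With a library left out, the count of called genes ran from 2 to 9 for corepressors, from 5 to 10 for coactivators, from 4 to 7 for MYC turnover, from 4 to 7 for MYC DNA and mRNA binding factors, and from 0 to 1 for the paralogs. Upper quartile normalization gave 7 in place of 4 for other E-box factors. The cause of these changes was not tested. The 95% intervals of members that did not pass reflect only the spread between these libraries. They are not adjusted for the number of genes tested and are not limits of detection.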
